A study of Mus musculus with 20 samples.

Results

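A set of 9 genes that mark the macrophages of the brain's borders, Mrc1, Cd163, Lyve1, Pf4, Cbr2, F13a1, Folr2, Dab2 and Fcna, were followed through 20 RNA-seq libraries of microglia sorted from mouse brain. They were found by gene symbol, and all 9 were present among the 21315 symbols of the files. The mice were C57BL/6 and 9 months old. In the labelled C3aR-positive sort there were 3 WT and 3 APP-KI libraries (WT C3aR+ and APP-KI C3aR+), both from mice whose endogenous C3ar1 locus carried the Td-tomato reporter of a C3ar1 fl/fl line, with cells selected on Td-tomato. In the sort without that selection, called all sorted microglia here, there were 3 WT, 3 APP-KI, 3 C3aRKO and 5 APP-KI;C3aRKO libraries. APP-KI is the APP NL-G-F knock-in, in which mouse App encodes a humanized Aβ with the Swedish, Iberian and Arctic mutations. C3aRKO is a germline loss of C3ar1 and therefore not restricted to microglia, and APP-KI;C3aRKO, called the double mutant below, carries both. Per the study's methods, the C3aRKO line was backcrossed to C57BL/6J for 5 generations before it was crossed with APP-KI. All cells were CD45mid and CD11b+ cells of PBS-perfused, papain-digested brain, and mice of both sexes were used. The labels do not say that replicates came from separate mice, so p-values measure the spread between these libraries, which may be in part technical.

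Border macrophages live around vessels, in the meninges and in the choroid plexus, whereas microglia live in the parenchyma. They express scavenger and lectin receptors that sample fluid and blood-borne material, and they usually stain more strongly for CD45 than microglia do, so a CD45mid gate leaves out part of them. Of the receptors, Mrc1 encodes the mannose receptor CD206, Cd163 the scavenger receptor for haemoglobin bound to haptoglobin, Lyve1 a hyaluronan receptor and Folr2 folate receptor beta. Of the secreted proteins, Pf4 encodes the chemokine CXCL4, which platelets also store, F13a1 the A subunit of coagulation factor XIII, and Fcna ficolin A of the lectin pathway of complement. Of the intracellular proteins, Dab2 is an endocytic adaptor and Cbr2 a carbonyl reductase. In RNA from a bulk sort, fewer cells of a type and less RNA per cell cannot be told apart, so a level below is a level of transcript in the sorted pool.

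The promoters of the 4 members with the most reads, not divided by gene length, are shown because the comparisons turn on these genes. In C3aR-positive microglia 3 of them were called lower while Dab2 was not. The windows are RefSeq's, in GRCm38.p6, cover bases 250 to 23 before the most upstream start RefSeq gives each gene, and lie upstream of every annotated transcript of it. Capitals mark GAGGAA or its reverse complement TTCCTC, a sequence that PU.1 binds, and would mark TGCTGAC or its reverse complement, part of the element that MAF factors bind. Shorter parts of these sequences were not searched for. Both strands were searched.
Mrc1, chr2:14229164-14229391, plus strand: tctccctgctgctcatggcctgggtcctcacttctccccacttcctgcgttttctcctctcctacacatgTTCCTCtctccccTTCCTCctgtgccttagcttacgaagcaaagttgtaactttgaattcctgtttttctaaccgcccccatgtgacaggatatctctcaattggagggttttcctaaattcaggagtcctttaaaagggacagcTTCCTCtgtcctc
F13a1, chr13:37050267-37050494, minus strand: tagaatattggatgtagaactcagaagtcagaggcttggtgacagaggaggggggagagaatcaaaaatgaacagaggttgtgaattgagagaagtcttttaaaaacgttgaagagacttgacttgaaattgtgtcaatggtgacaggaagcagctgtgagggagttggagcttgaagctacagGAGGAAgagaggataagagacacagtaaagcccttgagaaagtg
Cd163, chr6:124304401-124304628, plus strand: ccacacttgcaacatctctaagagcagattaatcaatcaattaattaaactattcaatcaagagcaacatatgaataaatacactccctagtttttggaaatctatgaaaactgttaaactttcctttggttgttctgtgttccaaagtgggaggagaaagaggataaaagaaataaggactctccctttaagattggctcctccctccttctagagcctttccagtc
Dab2, chr15:6299539-6299766, plus strand: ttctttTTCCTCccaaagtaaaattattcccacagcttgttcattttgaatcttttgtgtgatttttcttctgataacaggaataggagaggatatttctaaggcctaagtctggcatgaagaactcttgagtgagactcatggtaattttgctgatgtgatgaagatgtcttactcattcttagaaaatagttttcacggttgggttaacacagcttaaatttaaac
GAGGAA, on either strand, was present 3 times in the Mrc1 window, once in the F13a1 and Dab2 windows and not in the Cd163 window. Of 32851 RefSeq promoter windows of the same 228 bases, 21.2% held it. TGCTGAC was in none of the 4 windows and in 3.42% of all windows. A match of these letters is a description of the sequence only. The genes themselves lie, in GRCm38, at chr2:14229392-14332057 (Mrc1, plus strand), chr13:36867178-37050244 (F13a1, minus strand), chr6:124304656-124330527 (Cd163, plus strand) and chr15:6299788-6440712 (Dab2, plus strand), and all are protein-coding.

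The deposited values were read counts divided by the library's 75th percentile, and they are given below times 1 constant, 35.1, the same for every library (scaled value). Depth was 13939559 to 30388941 reads in the C3aR-positive libraries and 42239056 to 76608464 in the others. Of the all sorted libraries 4 stood apart: APP-KI 4, C3aRKO 1, C3aRKO 2 and double mutant 1 had 12386 to 13249 genes above 0 reads, against 14885 to 21210 in the other 16. In these 4, Pf4, Folr2 and Fcna were each at 0 reads in 3 libraries, and the fits of all sorted microglia are given with and without them. All zeros of the members fell in these 4 libraries. The library numbers that the files carry fell into 3 blocks of numbers, called runs here, and the labels do not name a batch or a date. The first run, by number, held all 6 C3aR-positive libraries. A run of lower and a run of higher numbers, called earlier and later here, held the all sorted ones. Hence sort, reporter allele, run and depth cannot be told apart. C3ar1 had a scaled value of 39.8 to 80.2 in the 8 knockout libraries and 165 to 387 in the 6 all sorted libraries with an intact gene, but 37.5 to 81.0 in the libraries labelled WT C3aR+, below every all sorted WT library. In APP-KI C3aR+ it was 201 to 382, so the 2 groups of the C3aR-positive sort, called so here by their label, differed in the gene that the sort selects on.

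Among the members, Mrc1, Dab2, F13a1 and Cd163 carried nearly all of the signal. Over the 20 libraries Mrc1 had a scaled value of 79.6 to 638 (1124 to 48393 reads), Dab2 of 82.1 to 253, F13a1 of 44.1 to 245 and Cd163 of 25.4 to 199. The other 5 had low scaled values, which are not divided by gene length. Lyve1 reached at most 39.1, Cbr2 36.1, Pf4 24.3, Fcna 11.5 and Folr2 7.03. No library was at 0 reads for Lyve1, 1 was for Cbr2, and 3 were for each of Pf4, Folr2 and Fcna. Per kilobase of exon, Mrc1 had the highest mean level in all 6 conditions. In WT it was 75.1 ± 31.5 scaled units per kb (SD, n = 3) and above the next gene in 3 of 3 libraries. Behind it Pf4 (27.6 ± 9.6), F13a1 (27.4 ± 11.8), Dab2 (27.0 ± 9.88) and Cd163 (24.7 ± 13.2) lay within each other's spread, followed by Cbr2 (19.0 ± 9.11), Lyve1 (8.78 ± 5.04), Fcna (6.13 ± 2.97) and Folr2 (3.18 ± 1.63). The last 4 kept this order in 3 of 3 WT libraries. In the knock-in conditions the mean of Mrc1 per kb was lower and lay closer to that of Dab2. In APP-KI, Mrc1 was 18.5 ± 4.12 and Dab2 16.2 ± 4.52 scaled units per kb, beside 27.0 for Dab2 in WT. In APP-KI C3aR+, Mrc1 was 20.8 ± 10.8 and Dab2 20.7 ± 7.70, and neither pair differed beyond its spread.

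**Figure D1:**
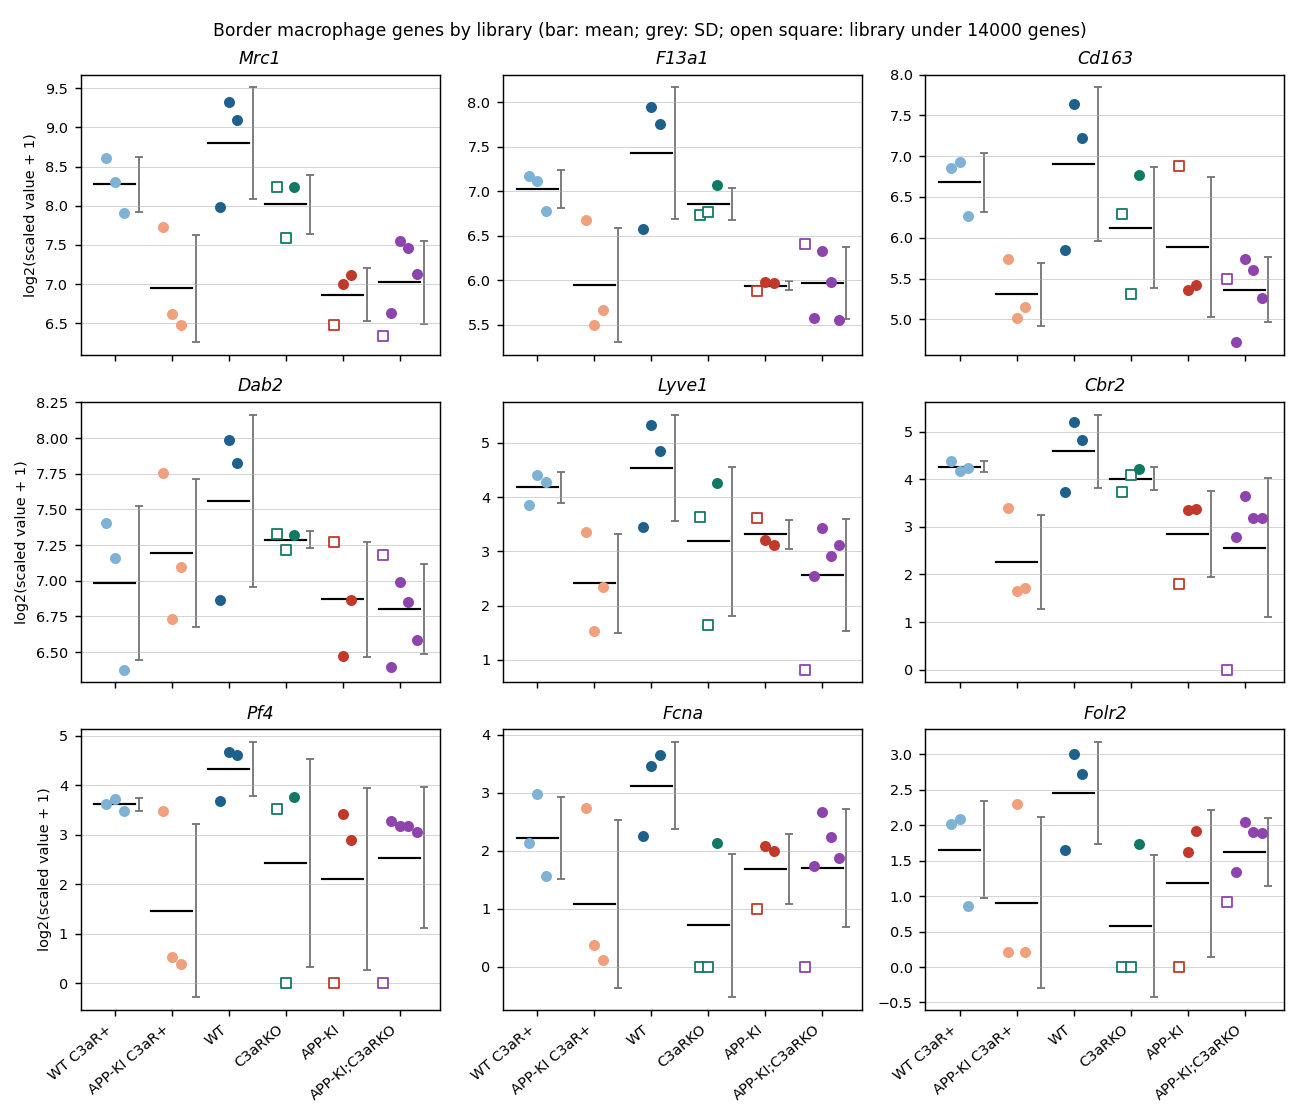
The vertical axis is log2 of the scaled value plus 1 for each of the 9 genes, with 1 point per library in the 6 conditions, a bar at the mean and a grey SD (n = 3, and 5 for the double mutant), and open squares mark the 4 libraries with fewer than 14000 genes. Mrc1 and F13a1 had their lowest means in the conditions with the App knock-in, while Dab2 overlapped between WT and APP-KI in both sorts.

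The label of the sort was met by the microglia genes. The 12 microglia genes, which include P2ry12, Tmem119 and Cx3cr1, were above 0 in all 20 libraries and summed to 11446 to 36960. The 9 border macrophage genes summed to 277 to 1451, that is 1.05% to 3.93% of the microglia sum. The genes of several other cells were not negligible beside that. Summed levels were 208 to 399 for 6 astrocyte genes, 107 to 227 for 6 oligodendrocyte genes and 61.4 to 354 for 9 endothelial genes, and in some libraries the astrocyte or endothelial sum passed that of the members. Most of the astrocyte sum was Slc1a3, at 163 to 378 with a median of 231. The medians of the other astrocyte genes were 14.9 for Slc1a2, 6.27 for Aqp4, 5.44 for Aldoc, 2.61 for Gfap and 1.77 for Gja1. The endothelial sum was 63.1 to 134 in WT C3aR+ and 196 to 354 in APP-KI C3aR+, and 76.6 to 91.7 in WT and 218 to 288 in APP-KI. Most of that difference was Flt1, at 9.90 to 11.9 in WT and 166 to 243 in APP-KI, whereas Pecam1 was called lower in APP-KI C3aR+ (-2.09, adjusted p = 0.0030 by limma). Other lists were lower, at most 53.9 for 7 lymphocyte genes and 22.1 for 7 neuron genes, and at most 40.1 for 9 platelet genes. Of the platelet genes, Gp1ba was at 4.04 to 23.5 and above 0 in every library. Tubb1 reached 14.3, Clec1b 11.1, Gp9 10.4, Treml1 6.94 and Itga2b 5.44, while Gp5 never passed 1.49, Ppbp 0.523 and Gp1bb 0.0785. The 4 genes of lymphatic vessels, which share Lyve1, summed to 32.8 to 54.8, of which Prox1 alone was 29.0 to 54.7, Flt4 at most 5.64, Pdpn at most 1.59 and Mmrn1 at most 0.773 with 14 libraries at 0. Neutrophil genes were variable, with a sum of 7.26 to 981, and their part in the results below was not tested.

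In C3aR-positive microglia, the comparison asks how sorted cells of plaque-bearing mice differ from those of WT mice. Mrc1 had scaled values of 389.9, 316 and 239.7 in WT C3aR+ 1 to 3 and of 211, 97.6 and 88.2 in APP-KI C3aR+ 1 to 3. All 3 APP-KI libraries lay below all 3 WT libraries, and APP-KI C3aR+ 1 stood above the other APP-KI libraries. The log2 fold change was -1.33 (SE 0.30, adjusted p = 0.012), a 0.397-fold level. Adjusted p here and below come from limma on log2 of the scaled value plus 1, with Benjamini-Hochberg adjustment over all 12311 genes tested in this comparison.

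Cd163 was 115, 121 and 76.1 in the WT and 52.4, 31.5 and 34.7 in the APP-KI libraries. The groups did not overlap and the change was -1.38 (SE 0.23, adjusted p = 0.0027 by limma). F13a1 was 143, 138 and 109 in WT against 101, 44.1 and 49.6 in APP-KI, again without overlap, with a change of -1.08 (SE 0.27, adjusted p = 0.020). The 2 genes of low level that passed the test had the largest folds among the called members. Cbr2 went from 19.9, 17.0 and 17.9 to 9.54, 2.16 and 2.28 (log2 fold change -2.01, SE 0.49, adjusted p = 0.016). Lyve1 went from 13.4, 20.1 and 18.5 to 9.24, 1.90 and 4.08 (-1.76, SE 0.47, adjusted p = 0.025). For both genes every APP-KI library was below every WT library.

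The other 4 members did not pass. Pf4 was 11.3, 12.2 and 10.1 in WT and 10.2, 0.433 and 0.314 in APP-KI, so that APP-KI C3aR+ 1 lay within the WT range while the other APP-KI libraries were near 0. Its change was -2.14 with a 95% interval of -3.82 to -0.46 (adjusted p = 0.0665). Fcna (-1.15) and Folr2 (-0.75) had intervals that spanned 0. Dab2 was 169, 142 and 82.1 in WT and 215, 105 and 136 in APP-KI. These values overlapped, and its difference of 0.21 (interval -0.45 to 0.88) had the opposite sign.

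In all, 5 of 9 members were called lower and 0 higher, where 9.71% of all genes were called lower and 13% higher. The median change of the 9 was -1.33, beside -0.17 for all genes tested. Scaling by the median ratio brought that median of all genes to -0.04 and the higher calls from 57.3% to 73.1% of all calls, and the 5 members were still called under it. Under that scaling 5.45% of all genes were called lower. There were 5 members lower with no overlap between groups, as were 25.7% of all genes. Libraries decided part of the count: it was 3 without WT C3aR+ 1 or 3 or APP-KI C3aR+ 3, 2 without WT C3aR+ 2 or APP-KI C3aR+ 2, and 6 without APP-KI C3aR+ 1. The share of all genes called lower changed too but did not follow this count throughout. It was 5.32%, 5.02% and 4.93% without WT C3aR+ 1, 2 and 3 in turn. Without APP-KI C3aR+ 1, 2 and 3 in turn it was 8.41%, 6.85% and 8.29%. Cd163 was called in all 15 settings tried, Mrc1 in 13, Cbr2 in 9, F13a1 in 8 and Lyve1 in 7.

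In all sorted microglia the same genotypes were compared in mice without the reporter. Mrc1 was 253, 638 and 544 in WT 4 to 6 and 88.2, 127 and 138 in APP-KI 4 to 6, with no overlap. The log2 fold change was -1.69 (SE 0.24, adjusted p = 0.00068 by limma over 12402 genes, with the run as a term). F13a1 was 94.6, 245 and 216 in WT against 57.8, 62.0 and 61.5 in APP-KI, also without overlap (-1.38, SE 0.29, adjusted p = 0.014). WT 4, of the earlier run, was the lowest WT library for all 9 members, and WT 5 and 6 were of the later run.

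The other 7 members were below 0 but did not pass. Cbr2 was 12.2, 36.1 and 27.3 in WT and 2.48, 9.18 and 9.42 in APP-KI, without overlap (-1.33, adjusted p = 0.43). Pf4 was 11.9, 24.3 and 23.4 against 0, 9.64 and 6.39 (-1.75, adjusted p = 0.57), where 0 is the low-gene library APP-KI 4. Cd163 was 56.6, 199 and 148 against 116.6, 40.1 and 42.02. Here APP-KI 4 was above WT 4, and the change was -0.83 (SE 0.46, adjusted p = 0.55). Lyve1 (-0.84), Dab2 (-0.61), Folr2 (-0.89) and Fcna (-0.98) had adjusted p between 0.364 and 0.725.

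Thus 2 of 9 members were called lower and 0 higher, where 1.93% of all genes were called lower and 2.22% higher. Without overlap, 5 members were lower, as were 16.4% of all genes. In this comparison the median change was -0.98 beside -0.01 for all genes. Without the 4 libraries of few genes, a choice made after the data were seen, 8 of 9 were called lower, all but Folr2 (-0.56, adjusted p = 0.11), where 14.7% of all genes were called lower and 13.2% higher. Cd163 was then -1.36 (adjusted p = 0.0088), Lyve1 -1.25 (adjusted p = 0.024), Pf4 -1.15 (adjusted p = 0.015) and Dab2 -0.79 (adjusted p = 0.0088). In that fit APP-KI keeps 2 libraries and C3aRKO 1. Within runs, Mrc1 differed by -1.25 in the earlier (2 APP-KI against 1 WT) and -2.08 in the later (1 against 2), and F13a1 by -0.65 and -1.88. Cd163 differed by 0.27 and -2.01, and Dab2 by 0.01 and -1.04. Leaving out WT 5, WT 6 or APP-KI 6 left Mrc1 as the only call, where 0.805%, 0.999% and 0.805% of all genes were called lower. Mrc1 was called in all 26 settings tried for it and F13a1 in 21.

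**Figure D2:**
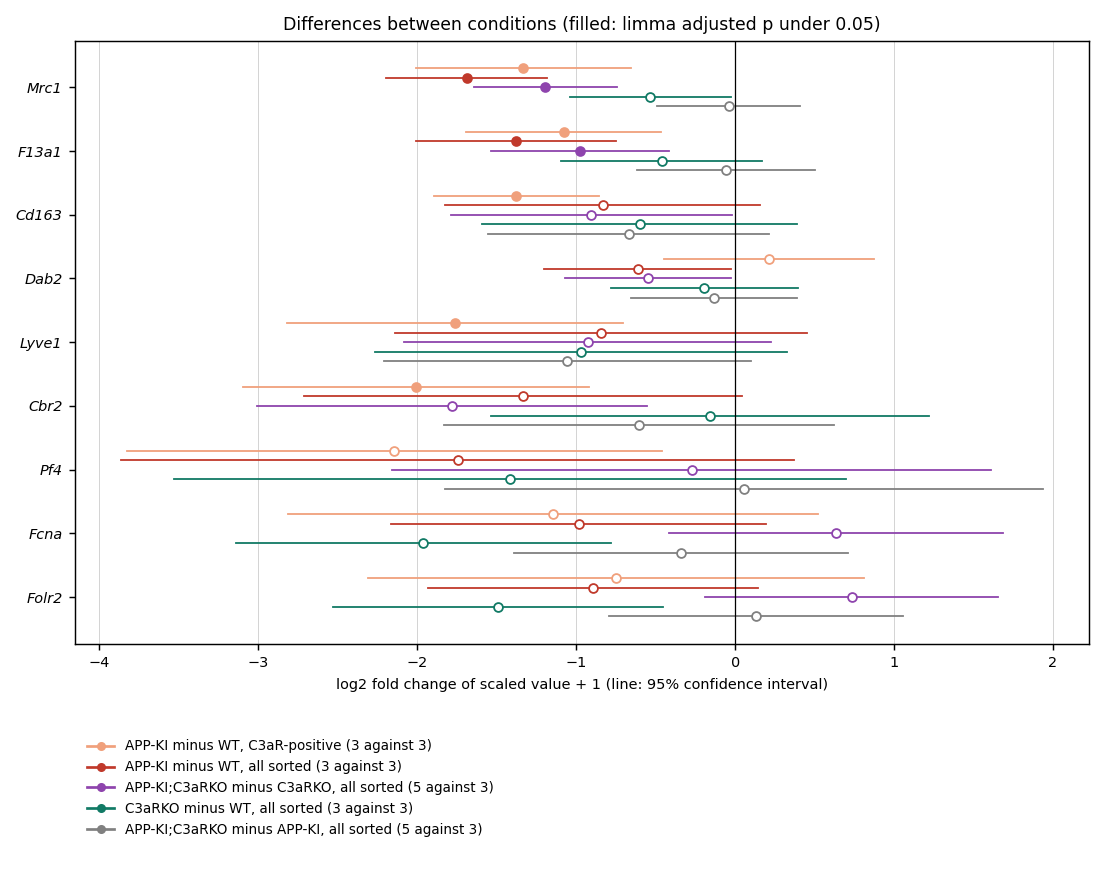
The horizontal axis is the log2 fold change of the scaled value plus 1, and each point with its line is 1 gene in 1 of 5 comparisons with its 95% confidence interval, filled where the limma adjusted p was under 0.05. The filled points belong to the 3 comparisons of mice with and without the App knock-in, and Mrc1 and F13a1 are filled in all 3.

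The knock-in was also compared in mice that lack C3ar1. Mrc1 was 302, 191 and 300.3 in C3aRKO 1 to 3, and in the 5 double mutants its lowest, median and highest values were 79.6, 139 and 186. The groups did not overlap, although C3aRKO 2 lay just above double mutant 3, and the change was -1.19 (SE 0.21, adjusted p = 0.0027). F13a1 was 106, 108 and 133 in C3aRKO and 46.1, 62.1 and 83.9 as lowest, median and highest in the double mutants (-0.97, SE 0.26, adjusted p = 0.037). Cbr2 was 12.4, 15.98 and 17.7 against 0, 8.16 and 11.5, without overlap, and its change of -1.78 (SE 0.57) had an adjusted p of 0.082 by limma. Dab2 was 160, 148 and 159 against 83.2, 114 and 144, which did not overlap either, with a change of -0.55 (adjusted p = 0.22). Cd163 (-0.90) and Lyve1 (-0.93) overlapped, Pf4 differed by -0.27, and the 2 lowest members had positive values, Fcna 0.64 and Folr2 0.73, where 2 of 3 C3aRKO libraries were at 0 reads for both.

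In this comparison 2 of 9 members were called lower and 0 higher, where 2.98% of all genes were called lower and 3.96% higher. Without overlap 4 were lower, as were 7.35% of all genes. The 9 changes came with a median of -0.90 beside -0.03. Mrc1 kept the call in 24 of 26 settings and F13a1 in 11. F13a1 was lost without WT 6, without any 1 of the 3 C3aRKO libraries, and without double mutant 2, 4 or 5. Without the 4 libraries of few genes C3aRKO keeps 1 library, which is assumed to vary like the other groups. In that fit 3 members were called, Mrc1 (-0.85, adjusted p = 0.040), F13a1 (-1.06, adjusted p = 0.0498) and Cd163 (-1.21, adjusted p = 0.033), where 18.2% of all genes were called lower and 13.2% higher. Within runs Mrc1 was -1.43 in the earlier (2 against 2) and -0.85 in the later (3 against 1), and F13a1 -0.76 and -1.11.

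Set side by side over the 14 all sorted libraries, 8 with the knock-in and 6 without, 3 members separated the 2 sets. Mrc1 was 79.6 to 186 with the knock-in and 191 to 638 without. F13a1 was 46.1 to 83.9 against 94.6 to 245, and Cbr2 was 0 to 11.5 against 12.2 to 36.1. Of all genes, 3.10% were lower with no overlap in this split. With the 6 C3aR-positive libraries added, 11 against 9, Cbr2 alone stayed apart, at 0 to 11.5 against 12.2 to 36.1, where 2.35% of all genes did so. The Mrc1 and F13a1 ranges then met because APP-KI C3aR+ 1 was at 211 for Mrc1 and 101 for F13a1. The smallest gap for Cbr2, between 11.5 in double mutant 3 and 12.2 in WT 4, is below the spread within every condition.

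Loss of C3ar1 was read in 2 backgrounds. Between C3aRKO and WT, 0 of 9 members were called by limma, with 0.00806% of all genes called lower and 0% higher, and edgeR and DESeq2 called 0 members too. All 9 estimates were below 0, with a median of -0.60 beside -0.03 for all genes. Mrc1 in C3aRKO (302, 191 and 300.3) overlapped WT only at WT 4 (253), with a change of -0.53 (interval -1.04 to -0.03, adjusted p = 0.99). At an unadjusted p under 0.05 there were 3 members, Mrc1, Folr2 (-1.49) and Fcna (-1.96), all lower, where 1.78% of all genes were lower and 0.992% higher at that level. Fcna alone was lower with no overlap, as were 9.31% of all genes. For Folr2 and Fcna the 2 C3aRKO libraries at 0 were the low-gene ones, and C3aRKO 3 had 2.34 and 3.40 against 2.13 and 3.78 in WT 4. Without the 4 libraries of few genes and with 1 C3aRKO library, 0 members were called again (0.00796% of all genes lower, 0.00796% higher).

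Between the double mutant and APP-KI, 0 of 9 members were called by limma, edgeR or DESeq2, where limma called 0.00806% of all genes lower and 0% higher. At an unadjusted p under 0.05 by limma there were 0 members, where 0.879% of all genes were lower and 0.306% higher at that level. Mrc1 differed by -0.04 (interval -0.49 to 0.41) and F13a1 by -0.06 (interval -0.62 to 0.50). The Mrc1 values of APP-KI, 88.2 to 138, lay within those of the double mutants, 79.6 to 186. Cd163 was -0.67 (interval -1.55 to 0.21), with APP-KI 4 at 116.6 and the other APP-KI libraries at 40.1 and 42.02, and Lyve1 was -1.05 (interval -2.21 to 0.10). Lyve1 differed by -1.72 in the earlier run and 0.04 in the later, and Cd163 by -1.01 and 0.11. Without the 4 libraries of few genes Lyve1 was -0.35, Cd163 -0.28 and Mrc1 -0.05, and 0 members were called, where 0.00796% of all genes were called lower and 0% higher. The difference of the C3ar1 effect between backgrounds called 0 members by limma, edgeR or DESeq2, where limma called 0% of all genes. For Mrc1 it was 0.49 (interval -0.20 to 1.19), and at an unadjusted p under 0.05 there were 2, Folr2 and Fcna, both higher, where 0.895% of all genes were higher and 0.742% lower. Both genes were at 0 in C3aRKO 1 and 2. Without the 4 libraries of few genes, with 1 C3aRKO library, the difference was 0.76 for Mrc1 (interval -0.01 to 1.54), 0.80 for Folr2 and 1.13 for Fcna, and 0 members were called, with 0% of all genes.

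Between the sorts 0 members were called, in WT or in APP-KI, by limma, edgeR or DESeq2, and limma called 0% of all genes in either. At an unadjusted p under 0.05 there were 0 members, where 3.39% of all genes were lower and 1% higher in WT, and 3.63% lower and 1.59% higher in APP-KI. In WT all 9 members were lower in the C3aR-positive libraries, from -0.90 for Fcna to -0.22 for Cd163, with Mrc1 at -0.52 (interval -1.32 to 0.27). WT C3aR+ values of Mrc1, 239.7 to 389.9, overlapped those of all sorted WT. In APP-KI, Mrc1 differed by 0.08 (interval -0.71 to 0.87) and F13a1 by 0.00 (interval -0.72 to 0.73), and the 3 libraries of each sort overlapped for both. The APP-KI effect itself was not called different between the sorts for any of the 9 members by limma, edgeR or DESeq2, and 0 had an unadjusted p under 0.05, where 6.64% of all genes were higher and 5.12% lower. The largest difference was that of Dab2, 0.90 (interval -0.16 to 1.97, adjusted p = 0.47), for which the APP-KI effect was 0.21 in one sort and -0.61 in the other.

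**Figure D3:**
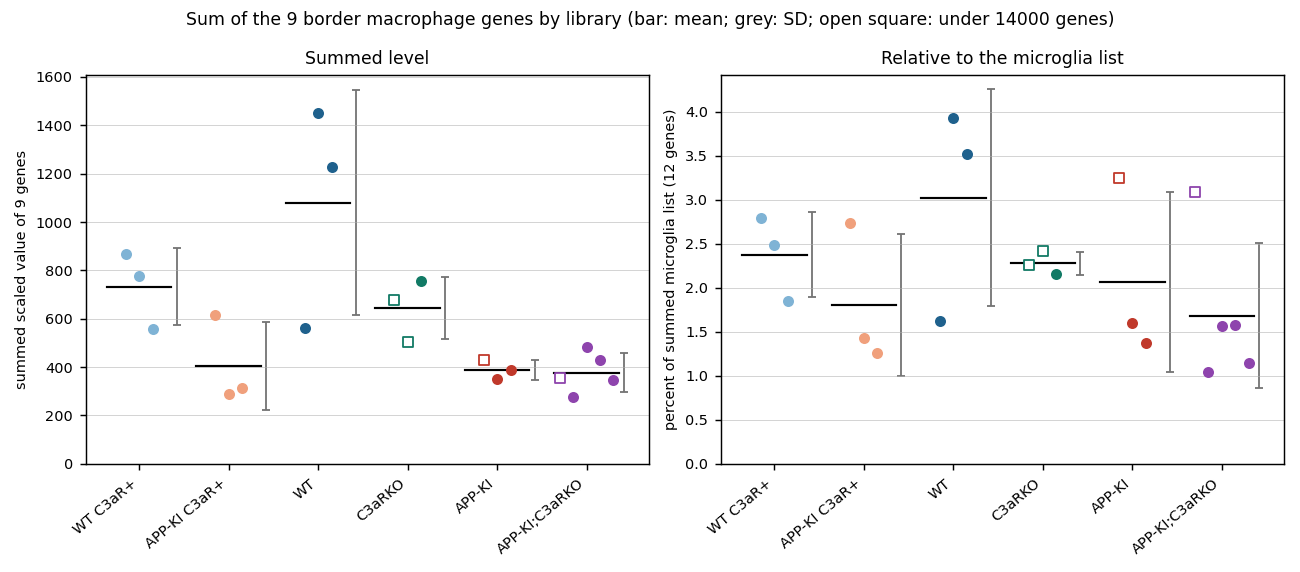
The left panel shows the sum of the 9 genes' scaled values and the right panel that sum as a percent of the 12 microglia genes' sum, with 1 point per library, a bar at the mean, a grey SD and open squares for the libraries with fewer than 14000 genes. The all sorted libraries with the App knock-in sit at 277 to 482 on the left, below the 503 to 1451 of the others, and the ranges overlap on the right. In the C3aR-positive sort the ranges overlap on the left too, at 287 to 615 with the knock-in and 556 to 868 without.

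The denominator moved too. The microglia list summed to 30017 to 31250 in WT C3aR+ and to 20122 to 24991 in APP-KI C3aR+. Of its 12 genes 6 were called lower, with a median change of -0.61, where 9.71% of all genes were called lower. In all sorted microglia 2 of 12 were called lower in APP-KI, with a median of -0.71, where 1.93% of all genes were called lower. As a percent of that list, the border macrophage sum was 1.85% to 2.79% in WT C3aR+ against 1.26% to 2.73% in APP-KI C3aR+, and 1.62% to 3.93% in all sorted WT against 1.37% to 3.24% in APP-KI, so both pairs overlapped. The highest values with the knock-in were APP-KI C3aR+ 1 (2.73%) and the low-gene libraries APP-KI 4 (3.24%) and double mutant 1 (3.09%), whose microglia sums were 13300 and 11446. Mrc1 alone, as a percent of the microglia list, was 0.731% to 1.73% in WT and 0.489% to 0.663% in APP-KI, which did not overlap. In the C3aR-positive sort it was 0.799% to 1.26% against 0.353% to 0.939%, which did.

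The proportion of the members to Mrc1 differed between libraries. F13a1 was 36.8% to 45.5% of Mrc1 in WT C3aR+ and 37.4% to 39.6% in WT, and 45.2% to 56.2% and 44.5% to 65.6% in the corresponding APP-KI libraries. It was 33.1% to 105% in the double mutants. Cd163 was 22.3% to 31.2% of Mrc1 in WT and 30.4% to 132% in APP-KI, where APP-KI 4 was the highest. Pf4 was 2.91% to 4.22% in WT C3aR+ and 0.356% to 4.81% in APP-KI C3aR+. Dab2 was 34.2% to 45.1% of Mrc1 in WT C3aR+ and 39.6% to 45.7% in WT. It was 102% to 154% in APP-KI C3aR+, 69.1% to 174% in APP-KI and 65.1% to 181% in the double mutants, and 52.8% to 77.4% in C3aRKO. Every library with the knock-in except double mutants 3, 4 and 5, and APP-KI 5, was above all C3aRKO libraries.

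**Figure D4:**
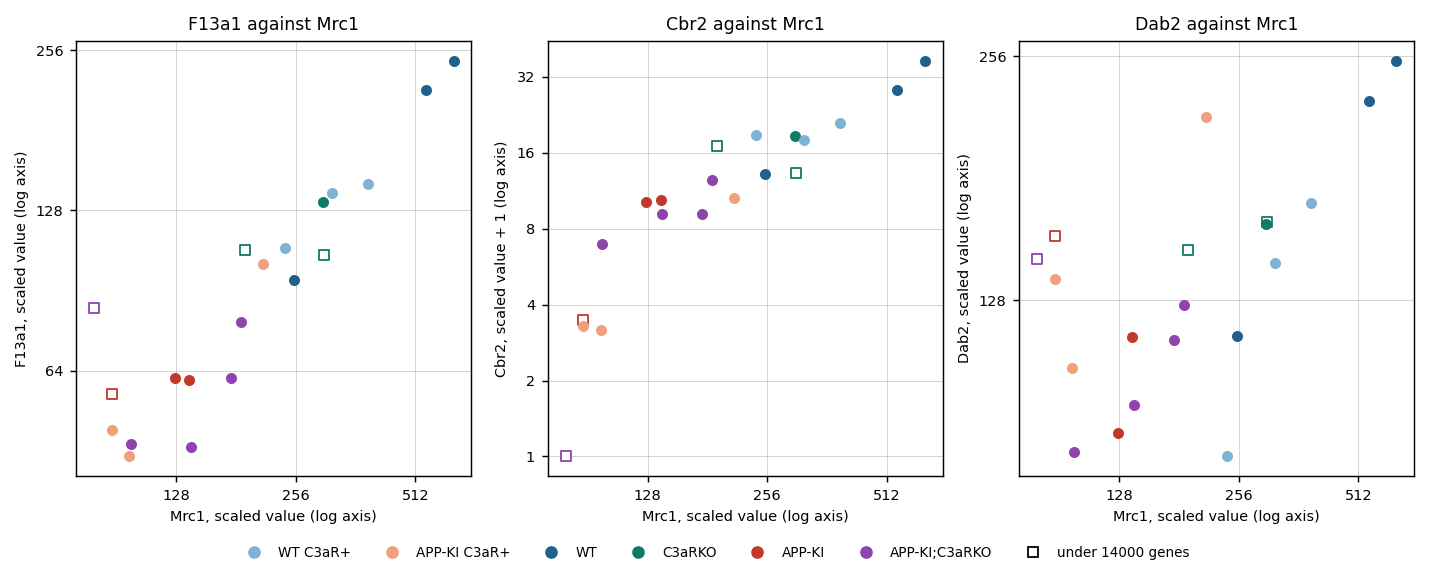
Each point is 1 of the 20 libraries, with the scaled value of Mrc1 on the horizontal log axis and that of F13a1, Cbr2 plus 1, or Dab2 on the vertical log axis, coloured by condition, and open squares mark libraries with fewer than 14000 genes. F13a1 and Cbr2 rise with Mrc1 across libraries, while Dab2 is scattered at the low end of Mrc1, where it ranges from 83.2 to 215.

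Libraries of 1 condition also differed from each other in a shared way. After the mean of each condition was subtracted from log2 of the scaled value plus 1, 35 of 36 member pairs had a Pearson's r above 0 over 20 libraries, with a median of 0.50 (median Spearman's rho 0.54). The highest was 0.84, for F13a1 with Dab2. Without the 4 low-gene libraries the median r was 0.80 over 16 libraries, and F13a1 and Mrc1 had 0.95. Folr2 was the exception, with a median r of 0.14 against the other members. These coefficients share library, depth and the library's scaling, and are given as description.

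By the same measure, the genes outside the 9 most like the members' mean profile over 20 libraries were Mmp12 (r 0.86), a macrophage metalloproteinase, Ugp2 (0.85), Tlr8 (0.81), Ndst1 (0.81), Lrp6 (0.80), Ccn1 (0.79), Pxdc1 (0.79), Selenop (0.76), Pltp (0.76) and Plxna1 (0.76), among 12363 genes. None was on a list used here. Over the 16 libraries with 14000 genes or more the order was different. Cd209b, a lectin receptor on the second list of border macrophage genes, came first (r 0.96), followed by Ecm1 (0.94) and Pltp (0.93), with Wwp1 (0.93), Clec4n (0.92) and Cd209f (0.88) of that list also among the first 10. Other genes of that list were far from the members' profile. Maf had an r of 0.18 (rank 3843) and Siglec1 the lowest, 0.15 (rank 4293). Over 20 libraries that list ran from -0.11 for Maf to 0.71 for Pla2g2d.

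That second list held 28 further genes of border macrophages. In C3aR-positive microglia 26 were tested, of which 9 were called lower and 1 higher in APP-KI, with a median change of -1.21 beside -0.17 for all genes. Of all genes, 9.71% were called lower and 13% higher. The scavenger receptor Stab1 fell from 1365 ± 126 to 478 ± 94.9 (SD, n = 3; log2 fold change -1.53, adjusted p = 0.00023 by limma), and the transcription factor Maf from 718 ± 70.5 to 384 ± 21.6 (-0.90, adjusted p = 0.00077). Tgfbi, Cd209a (-2.31), Cd209b (-1.90), Cd36 (-1.42), Igfbp4 (-1.56), Clec12a (-1.35) and Ccl24 (-1.83) were also called lower. Gas6, a ligand of TAM receptors, was called higher (1.16, adjusted p = 0.00028), at 159 ± 10.2 in WT and 359 ± 46.5 in APP-KI.

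In all sorted microglia 3 of 27 tested genes of that list were called lower in APP-KI, Stab1 (-1.65, adjusted p = 0.00093), Maf (-1.26, adjusted p = 0.0020) and Siglec1 (-1.45, adjusted p = 0.035), and 0 higher. In that comparison 1.93% of all genes were called lower and 2.22% higher. In double mutants against C3aRKO, Stab1 (-1.71) and Maf (-0.96) were called, where 2.98% of all genes were called lower and 3.96% higher. Without the 4 libraries of few genes 12 of 27 were called lower in APP-KI, where 14.7% of all genes were called lower and 13.2% higher. Stab1 and Maf had median scaled values of 594 and 449 over the 20 libraries, above the median of every member without division by gene length. Ms4a7, at 1.197 to 39.9, and the Cd209 genes were as low as Cbr2. Between C3aRKO and WT and between the double mutant and APP-KI 0 genes of the list were called. In each of these 0.00806% of all genes were called lower and 0% higher. The 4 MHC class II genes went the other way, with a median of 1.12 in both comparisons of APP-KI with WT. Of them 1 was called higher in the C3aR-positive sort and 0 in all sorted microglia, where 13% and 2.22% of all genes were.

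Lists of other cells were counted in the same fits, but only genes that passed the filter were tested. In the C3aR-positive fit these were 7 of 8 monocyte, 8 of 8 neutrophil, 2 of 4 lymphatic endothelial and 5 of 10 fibroblast and mural genes. Of choroid plexus genes 3 of 5 were tested, of neuron genes 1 of 7 and of lymphocyte genes 1 of 7. Lists with so few genes tested could hardly give a call. Of all genes in that fit, 9.71% were called lower and 13% higher. In C3aR-positive microglia 0 genes of the monocyte, neutrophil, lymphatic endothelial, fibroblast and mural, choroid plexus, neuron and lymphocyte lists were called in APP-KI, while the platelet, endothelial and astrocyte lists each had 1 gene called higher and 1 lower and the oligodendrocyte list 1 higher. In all sorted microglia 1 endothelial gene was called higher in APP-KI and 0 genes of the other 10 lists of these cells. In that fit 3 lymphocyte genes and 1 neuron gene were tested. Of all genes, 1.93% were called lower in APP-KI and 2.22% higher. In double mutants against C3aRKO, 1 monocyte gene was called lower, and 1 endothelial and 1 oligodendrocyte gene higher. There 2.98% of all genes were called lower and 3.96% higher. The part of these cells in the members' values was not tested.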

How the data were processed

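Total RNA-seq was read in 20 libraries of sorted mouse microglia. Per the labels and the study's methods, reads were aligned with TopHat to mm10, and the processing notes also name cutadapt, featureCounts and DESeq2. The kit marks molecules with UMIs, and whether they were used is not given in the sources used here. The deposited signal values were made by the authors: files named FPKM held read counts divided by each library's 75th percentile, with no division by gene length. All values were whole reads within 0.01 reads. They were multiplied by 35.1, and genes with a mean of 1 or more were tested.

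limma 3.58.1 (R 4.3.3) was fitted with a trend on log2(value + 1), so folds of low genes are understated, with Benjamini-Hochberg adjustment over all genes tested and a threshold of 0.05. C3aR-positive libraries were fitted alone, the 4 all sorted conditions together with the run of library numbers as a term, and the sorts in a separate fit. Alternatives were other pseudocounts, filters and scalings, edgeR 4.0.16 and DESeq2 1.42.0 on the recovered reads, and each library left out. The fit was tested on simulated data. All 9 members were named; the members and gene lists were chosen with earlier results of these data known. The low members were at 3 reads or fewer in up to 5 libraries. Intervals cover the spread between libraries. Genes nearest the members were ranked by Pearson's r with their mean profile, and the 10 first were named.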

Additional observations from a re-analysis of the deposited data

Results flagged for a closer look

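In the double mutant, the only group of 5 libraries, the Pf4 level of library 1 was 0, while the other 4 were at 7.26 to 8.62. The gap to the nearest library was 0.842 of the whole range, above the critical value of 0.71. In this group the 9 genes and their sum were tested in this way, and chance flags about 1 in 20 such tests. That library is one of the 4 with few genes detected, and its part in the value was not tested.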

How the results depend on the processing

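For 35 member values, 789 values under alternatives with a test were computed: 783 kept their direction, 45 lost a call and 12 gained one. In C3aR-positive microglia the 5 members called lower in APP-KI became 1 with no filter, 2 in limma without a trend and 2 in edgeR, and 2 to 6 when 1 library was left out. Of all genes, 9.71% were called lower as reported. That share was 5.2% with no filter, 6.97% without a trend, 5.35% in edgeR and 4.93% to 8.41% with 1 library left out. In all sorted microglia the 2 called in APP-KI became 1 in limma without a trend, 1 with only the 2 groups compared and 8 without the 4 libraries of few genes, and 1 to 3 when 1 library was left out. Of all genes, 1.93% were called lower as reported. In the same order of settings that share was 0.943%, 0.903%, 14.7% and 0.531% to 3.4%. In double mutants against C3aRKO the 2 called became 1 with no filter, median ratio scaling, TMM scaling, limma without a trend, edgeR or only the 2 groups, 0 with no run term, and 1 to 2 when 1 library was left out. Of all genes, 2.98% were called lower as reported. In the same order of settings that share was 1.2%, 2.3%, 2.13%, 2.1%, 2.16%, 1.38%, 2.73% and 1.96% to 5.14%. The cause of these changes was not tested. The number of genes tested also differed with no filter, and the number of libraries differed where some were left out.

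Whether replicates of the same number were paired could not be settled with so few libraries per group. Correlations of same-numbered deviations were -0.01 to 0.04 in C3aR-positive libraries and 0.09 to 0.25 for APP-KI with WT. In both, 2 of 3 libraries on each side matched their own number best. The correlations were -0.31 to 0.03 for double mutants with APP-KI and 0.0007 to 0.22 for double mutants with C3aRKO. With the replicate block 4 members were called lower in APP-KI in C3aR-positive microglia, where 6.93% of all genes were, 4 in APP-KI in all sorted microglia (2.35%), 0 in double mutants against C3aRKO (0.247%) and 0 in double mutants against APP-KI (1.3%).

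Dab2 in C3aR-positive microglia (0.21) turned to -0.089 without WT C3aR+ 3 and -0.07 without APP-KI C3aR+ 1, with a highest value of 0.45 among these omissions. Pf4 in double mutants against C3aRKO (-0.27) was 0.11 with no run term, and ranged from -1.22 to 0.48 when 1 library was left out. Calls over all genes moved too: in C3aR-positive microglia 1196 lower calls became 670 with median ratio scaling and 659 in edgeR. Members were at 0 reads only in the 4 all sorted libraries of few genes. In APP-KI C3aR+ 3, Fcna was at 1 read, Folr2 at 2 and Pf4 at 4. The part of depth, which was lower in the C3aR-positive libraries, was not tested.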
